A study of Mus musculus with 5 samples.

Results

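The cardiac myosin heavy and light chains were followed through 4 mouse cell populations on 5 two-colour oligonucleotide arrays. Myl7, Myl4, Myl2, Myl3, Myh6 and Myh7 were taken as members by the gene name, a known synonym or the gene record of each probe. This rule found 8 probes of 6 genes among 28845 gene probes. The labels give embryoid body, an aggregate that mouse embryonic stem cells form when they differentiate in culture, as the source of each population. By the same labels the populations were undifferentiated stem cells positive for Rex1 (day 0), early mesoderm positive for Bra and cardiac mesoderm positive for Flk1 (both day 4.5), and Nkx2.5-positive progenitors of the heart (day 7.5). The sources used here do not name the stem cell line, a reporter allele or the way in which positive cells were isolated. Rex1 RNA was hybridised on 3 arrays, Bra and Flk1 RNA on 2 each and Nkx2.5 RNA on 3, and 5 of the 6 pairs of populations were hybridised, each on 1 array, with no array for Flk1 against Bra. Rex1 RNA always carried Cy3 and Nkx2.5 RNA always Cy5, and Bra and Flk1 RNA carried Cy5 opposite Rex1 and Cy3 opposite Nkx2.5. No pair was hybridised with the dyes swapped, so on any array alone a dye effect and a population difference cannot be told apart. Nothing in the labels marks the arrays of 1 population as separate cultures, so a spread between arrays may be technical and no test between populations was made.

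Myosin II is the motor of the thick filament and is built from a pair of heavy chains, each carrying an essential and a regulatory light chain. In the mouse heart Myl7 and Myl4 are the regulatory and essential light chains of the atria, and Myl2 and Myl3 are their ventricular counterparts. Myh6 encodes the alpha heavy chain and Myh7 the beta heavy chain, which are fast and slow motors, and both light chains of the atria are also made widely in the early heart tube before chambers form. Myl7 and Myh6 transcripts are commonly used as early signs of cardiomyocyte differentiation in embryoid bodies.

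The upstream sequences of 4 members are shown because at least 1 probe of each was called higher in Nkx2.5 over Rex1 cells. Each run is the 250 bases before a RefSeq start on GRCm38.p6, read 5′ to 3′ on the strand of the gene. They lie at chr11:5898783-5899032 on the minus strand, chr11:104550413-104550662 on the plus strand, chr9:110763428-110763677 on the plus strand and chr14:54966608-54966857 on the minus strand. Capitals mark matches, on either strand, to the GATA motif (spelled AGATAA with its variant AGATAG, besides TGATAA with its variant TGATAG), the NKX2-5 motif (spelled CAAGTG with its variant TAAGTG), the box of TATA type (spelled TATAAA), the MCAT motif (spelled CATTCC), the CArG box and MEF2.
Myl7: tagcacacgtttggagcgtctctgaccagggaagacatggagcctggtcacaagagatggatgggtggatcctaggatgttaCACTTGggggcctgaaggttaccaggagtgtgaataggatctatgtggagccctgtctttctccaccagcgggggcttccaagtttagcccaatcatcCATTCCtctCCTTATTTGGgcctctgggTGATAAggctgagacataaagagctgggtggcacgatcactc
Myl4: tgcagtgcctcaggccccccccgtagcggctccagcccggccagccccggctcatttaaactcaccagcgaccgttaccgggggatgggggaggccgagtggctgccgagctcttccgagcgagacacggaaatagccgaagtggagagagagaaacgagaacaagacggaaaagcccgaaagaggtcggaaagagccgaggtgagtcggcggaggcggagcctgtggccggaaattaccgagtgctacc
Myl3: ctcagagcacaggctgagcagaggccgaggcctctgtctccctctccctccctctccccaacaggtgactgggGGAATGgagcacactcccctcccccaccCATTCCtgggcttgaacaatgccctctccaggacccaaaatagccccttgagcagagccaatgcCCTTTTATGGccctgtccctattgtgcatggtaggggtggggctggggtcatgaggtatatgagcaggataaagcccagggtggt
Myh6: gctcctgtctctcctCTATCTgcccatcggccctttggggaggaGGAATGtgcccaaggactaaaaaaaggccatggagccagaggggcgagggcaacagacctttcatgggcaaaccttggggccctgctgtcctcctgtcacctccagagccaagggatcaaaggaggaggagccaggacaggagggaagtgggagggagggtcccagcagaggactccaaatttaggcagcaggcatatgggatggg
The Myl7 window held 1 GATA, 1 NKX2-5, 1 MCAT and 1 CArG box match. Its MCAT, CArG box and GATA letters lay within the 70 bases next to the start. The Myl3 window held 2 MCAT matches and 1 CArG box match, and the Myh6 window 1 GATA and 1 MCAT match. The Myl4 window, with a GC content of 63.6%, held none of these letters, which says only that they are not in this window. Over all 32851 promoter windows in the table, 26.5% held a GATA match, 18.4% an NKX2-5 match, 12.4% a TATA box, 12.6% an MCAT match, 1.5% a CArG box and 2.9% a MEF2 match. The E-box CANNTG, which the NKX2-5 match of Myl7 overlaps, was in 66.2% of windows and was not capitalised. Myl2 and Myh7 each had 2 starts in the table, and their windows held single GATA, TATA box or MCAT matches at most.

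Signals are given first as the net scanner signal, the median spot signal above the background of its block, in scanner units. Net signals were not scaled between arrays, and a signal of 1 probe is not comparable with that of another. Across the 10 channels the median net signal was 30.8% to 152% of the background, and it was lowest in the 3 Rex1 channels. Being well above background meant a signal over percentile 95 of the 96 negative controls on that array in that dye, which held for 77.6% to 95.2% of probes. A log2 ratio had a direct reading, from the 1 array with both populations on it, and a second reading, from the other arrays that join them. The second readings of Bra or Flk1 cells against Nkx2.5 or Rex1 cells subtract arrays with the same dye order. A dye effect that is constant between arrays drops out of these, but not out of either reading of Nkx2.5 over Rex1. Whether dye effects were constant was not tested. A probe was called higher where the log2 ratio was at least 1, a fold of 2, in both readings and the higher population was well above background on each of its arrays. The average error of a log2 ratio on 1 array was 0.244, from the gaps between routes over all probes. Zfp42, which encodes Rex1, fell in Nkx2.5 cells against Rex1 cells, with log2 ratios of -1.68 direct and -2.25 by the second reading, and 0.707% of all probes were called lower in that comparison. Nkx2-5 itself had readings of 0.53 and 0.91 there and was not called. T, which encodes Bra, had 1.07 and 0.73 in Bra over Rex1. Kdr, which encodes Flk1, had 0.68 and 0.64 in Flk1 over Rex1, and neither gene was called.

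Myl7, Myl4 and Myl3 were higher in the Nkx2.5 cells of day 7.5 than in undifferentiated Rex1 cells, while the heavy chain genes gave mixed readings. In Nkx2.5 over Rex1, 5 of the 8 member probes were called higher, against 2.68% of all probes. They were Myl7, Myl4, both Myl3 probes and 1 of the 2 Myh6 probes. In Nkx2.5 over Bra 3 of 8 were called, against 0.319% of all probes, and in Nkx2.5 over Flk1 6 of 8 were called, against 0.34%. The median of the 8 probes in Nkx2.5 over Rex1 was 1.66 direct and 1.65 by the second reading, where the medians over all probes were 0.01 and 0. In 6 of 8 member probes the normalised signal of Nkx2.5 cells on each of their 3 arrays lay above every signal of the other populations, as it did in 2.91% of all probes.

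**Figure D1:**
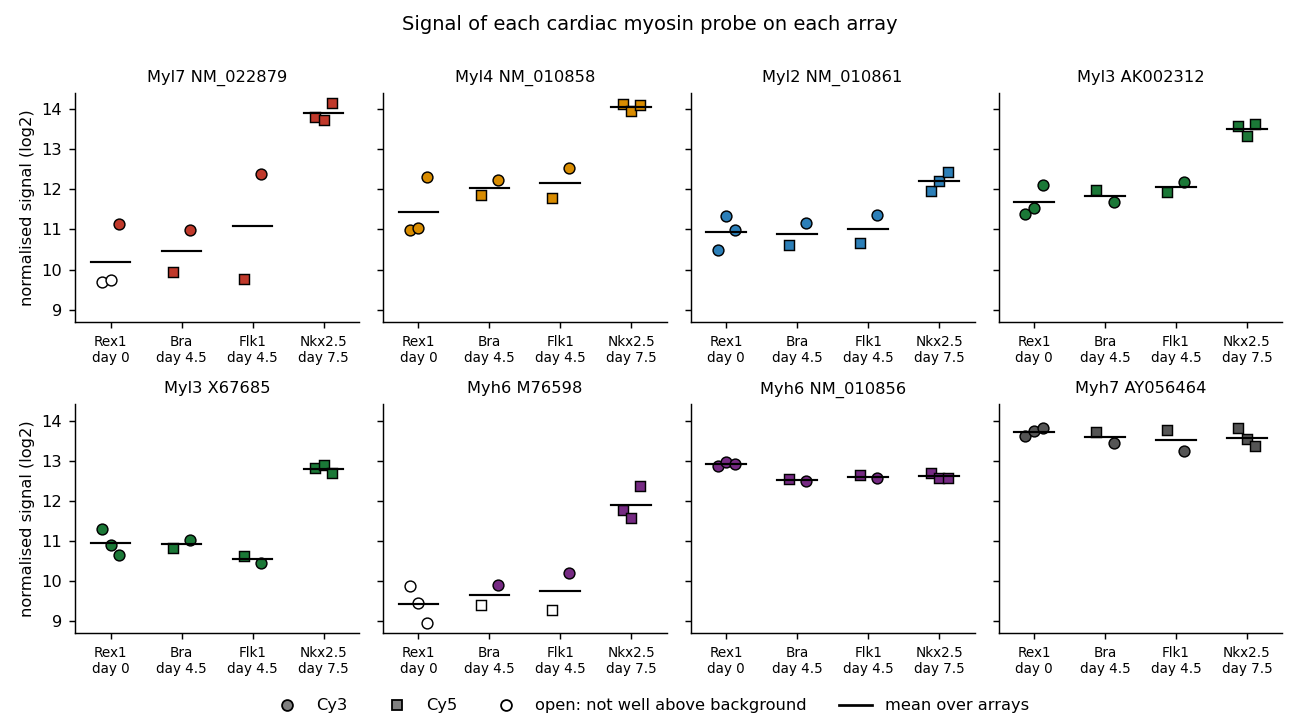
Normalised signal (log2, vertical axis) of each of the 8 probes in Rex1, Bra, Flk1 and Nkx2.5 cells (horizontal axis), 1 point for each array and dye, with the mean over arrays as a bar. The Nkx2.5 points stand above all others in 6 panels, while the Myh6 NM_010856 and Myh7 panels show no such step.

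Myl7, the atrial regulatory light chain, gave net signals of 1030.5, 1090.5 and 2178.5 in Rex1 cells, 1982.5 and 5552.5 in Bra cells, 1276.5 and 6526.5 in Flk1 cells, and 14720.5, 21149.5 and 23750 in Nkx2.5 cells. On the normalised scale the lowest Nkx2.5 signal was 13.74 and the highest of the other populations was 12.39. Such a separation held in 2.91% of all probes. In Rex1 cells Myl7 was well above background on 1 of 3 arrays. Its log2 ratio in Nkx2.5 over Rex1 was 2.67, a fold of 6.36, with a second reading of 2.39, and the direct reading ranked 14 of 28845 probes. In Nkx2.5 over Bra it was 2.75, a fold of 6.72, with a second reading of 2.42, and only 1 other probe had a larger direct reading. In Nkx2.5 over Flk1 the readings were 1.76 and 2.64. Myl7 was thus called in all 3 comparisons of Nkx2.5 cells, and the readings of the last were the furthest apart.

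The Myl7 signal outside Nkx2.5 cells depended on the array. The normalised log2 signal of Flk1 cells was 9.77 on the array shared with Rex1 and 12.39 on the array shared with Nkx2.5, and that of Bra cells was 9.94 and 10.99. The dye also differed between these arrays, Cy5 in the first and Cy3 in the second. Rex1 RNA carried Cy3 throughout, and its Myl7 signal was 9.70 and 9.74 opposite Bra and Flk1 but 11.14 opposite Nkx2.5. This rise of 1.42 was larger than that of 99.9% of probes, among which the median was 0.01 and the SD 0.35. Myl4 showed the same with a rise of 1.30, and the Myl3 AK002312 probe rose by 0.64. On this scale the Myl3 X67685 probe moved by -0.45 and the Myh6 M76598 probe by -0.70 opposite Nkx2.5. Myl2, Myh6 NM_010856 and Myh7 moved by 0.06, 0 and 0.13. The part of this shift in the ratios was not tested.

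Myl4, the atrial essential light chain, gave net signals of 2085.5, 2263.5 and 4447 in Rex1 cells, 5213 and 9542.5 in Bra cells, 4125.5 and 7087.5 in Flk1 cells, and 18078, 23287 and 23036 in Nkx2.5 cells. It was well above background in all 10 channels. Its lowest normalised signal in Nkx2.5 cells was 13.96, and the highest in the other populations was 12.53. Its log2 ratio in Nkx2.5 over Rex1 was 1.82, a fold of 3.53, with a second reading of 2.47. In Nkx2.5 over Flk1 the readings were 1.58 and 1.06, past the threshold in both. In Nkx2.5 over Bra they were 1.73 and 0.96, so the second reading fell just short and Myl4 was not called there. The mean normalised signal was 11.45 ± 0.75 (SD, n = 3 arrays) in Rex1, 12.04 ± 0.26 (n = 2) in Bra, 12.15 ± 0.53 (n = 2) in Flk1 and 14.07 ± 0.09 (n = 3) in Nkx2.5 cells. The arrays of the first 3 populations overlapped, but this spread leaves out the pairing of populations on an array. The direct readings were 0.86 in Bra over Rex1 and 0.76 in Flk1 over Rex1, with second readings of 0.09 and 0.24.

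Myl3, the ventricular essential light chain that slow skeletal muscle also uses, had 2 probes. The X67685 probe gave net signals of 2454.5, 2153.5 and 1681 in Rex1 cells, 3146 and 5620 in Bra cells, 2222 and 2319.5 in Flk1 cells, and 7811.5, 12863 and 10067.5 in Nkx2.5 cells. Its readings were 2.18 and 1.68 in Nkx2.5 over Rex1, 1.86 and 2.66 in Nkx2.5 over Bra, and 2.25 and 2.45 in Nkx2.5 over Flk1. It was called in all 3 comparisons, and the direct fold over Flk1 cells was 4.74. The AK002312 probe carries the name of Myl3, but its description in the files names another gene, so its identity is uncertain. It gave readings of 1.49 and 2.03 over Rex1, 1.63 and 0.89 over Bra, and 1.45 and 1.11 over Flk1, and was called in the first and the last. Both probes were higher in Nkx2.5 cells on all 3 arrays of these cells, though the sizes of the readings differed.

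Myl2, the ventricular regulatory light chain, had the smallest direct readings among the 5 light chain member probes in the 3 comparisons of Nkx2.5 cells. Its net signals were 1666.5, 2679.5 and 2005 in Rex1 cells, 2849.5 and 5991 in Bra cells, 2279 and 3634 in Flk1 cells, and 4625, 9046.5 and 8678 in Nkx2.5 cells. In Nkx2.5 over Rex1 the direct fold was 1.99, just under the threshold, with a second reading of 0.80, and in Nkx2.5 over Bra the readings were 1.05 and 0.87, so neither was called. In Nkx2.5 over Flk1 they were 1.08 and 1.65, and the probe was called. The normalised signal was 12.20 ± 0.23 (SD, n = 3 arrays) in Nkx2.5 cells and 10.93 ± 0.41 (n = 3) in Rex1 cells. Its lowest Nkx2.5 signal, 11.97, lay above the highest of the other populations, 11.36. Such a separation held in 2.91% of all probes.

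**Figure D2:**
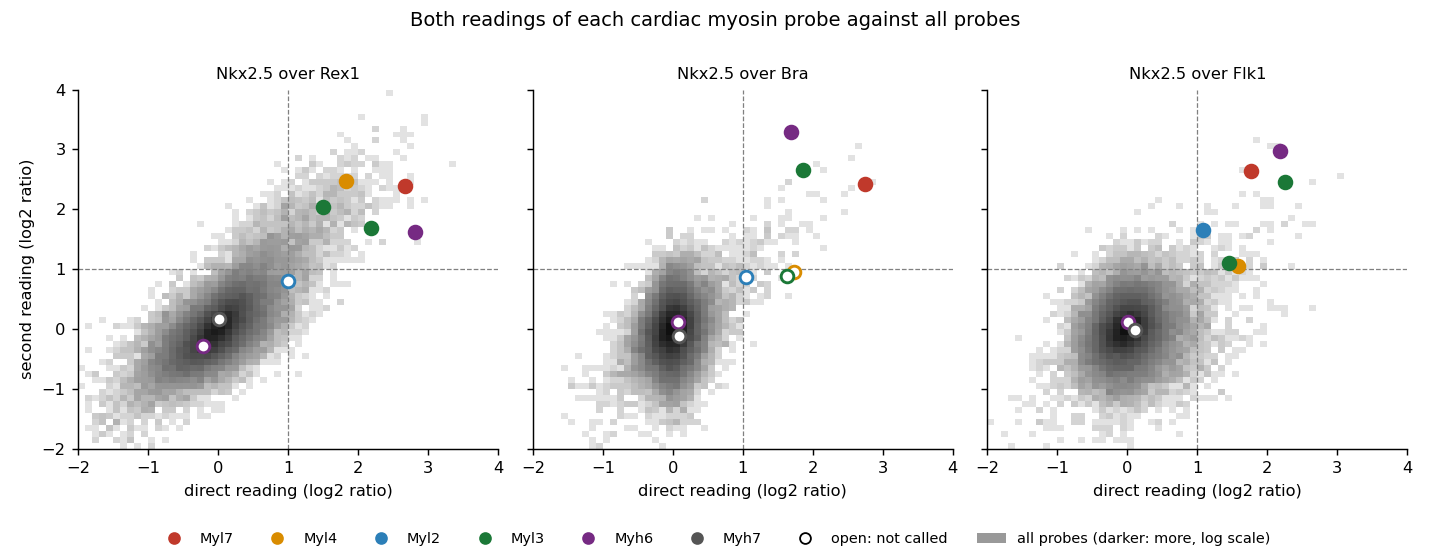
Direct reading (horizontal axis, log2 ratio) against second reading (vertical axis, log2 ratio) of the 8 probes in the 3 comparisons of Nkx2.5 cells, over all 28845 probes in grey. Filled points in the upper right corner, past the dashed lines at a log2 ratio of 1, were called, and the points of Myh7 and of 1 Myh6 probe lie in the middle of all probes.

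The heavy chain probes gave mixed readings. Myh6 had 2 probes with different patterns. The M76598 probe was dim: its net signals were 1151, 786.5 and 444.5 in Rex1 cells, 1192.5 and 2288.5 in Bra cells, 743 and 2048 in Flk1 cells, and 3919, 6729 and 8354.5 in Nkx2.5 cells. It was well above background on 0 of 3 Rex1 arrays, 1 of 2 Bra arrays, 1 of 2 Flk1 arrays and 3 of 3 Nkx2.5 arrays. Its readings were 2.81 and 1.62 in Nkx2.5 over Rex1, 1.69 and 3.29 over Bra, and 2.18 and 2.97 over Flk1, and it was called in all 3.

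The fold of this probe was poorly fixed. Set against the lowest signal well above background in the Rex1 channels, the mean Nkx2.5 signal of Myh6 M76598 was 3.72-fold higher. The measured mean normalised signals were 11.90 in Nkx2.5 and 9.41 in Rex1 cells. These means include the Nkx2.5 over Rex1 array and leave out the pairing of populations on an array. The second reading, 1.62, gave a smaller fold, so 3.72 is not a lower bound. The scanner marked the spot Bad on the Nkx2.5 over Rex1 array, and the deposited series table gives 0.82 there in place of 2.81, by a step that no source used here describes. Without the Bad spot the probe had no direct reading over Rex1 cells and no second reading over Bra or Flk1 cells. The calls among the 8 probes were then 4, 2 and 5 in Nkx2.5 over Rex1, Bra and Flk1. Its direct readings over Bra and Flk1 cells do not use that spot.

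The NM_010856 probe of Myh6 was bright and flat. Its net signals were 6081.5, 7104 and 6377 in Rex1 cells, 7572 and 10975 in Bra cells, 6876.5 and 7204.5 in Flk1 cells, and 7144.5, 10814 and 9289 in Nkx2.5 cells. Its readings were -0.22 and -0.29 in Nkx2.5 over Rex1, 0.08 and 0.12 over Bra, and 0.01 and 0.11 over Flk1. On the normalised scale Rex1 cells stood slightly above Nkx2.5 cells, at 12.92 ± 0.05 against 12.61 ± 0.08 (SD, n = 3 arrays each). The 2 probes that share the name of Myh6 therefore disagreed, and the files hold no probe sequences by which to choose between them. Where in the transcript each probe lies, and whether NM_010856 binds other transcripts, was not tested.

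Myh7, the beta heavy chain of slow muscle and of the ventricles before birth, was bright in every population. Its net signals were 10579, 12247 and 12014.5 in Rex1 cells, 15496 and 17389.5 in Bra cells, 14145.5 and 11095 in Flk1 cells, and 14474, 17618.5 and 14404 in Nkx2.5 cells. The readings were 0.01 and 0.17 in Nkx2.5 over Rex1, 0.09 and -0.11 over Bra, and 0.11 and -0.02 over Flk1, all within the error of 1 array. Mean normalised signals ran from 13.51 ± 0.37 (SD, n = 2 arrays) in Flk1 cells to 13.72 ± 0.10 (n = 3) in Rex1 cells, and the arrays of all populations overlapped. A signal of this size in undifferentiated cells was a measured feature of this probe, and whether it came from Myh7 RNA was not tested.

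No member probe was called higher in the early mesodermal populations. In Bra over Rex1, 0 of 8 were called against 1.16% of all probes, and in Flk1 over Rex1 0 of 8 against 0.669%. In Flk1 over Bra, read only through Rex1 and through Nkx2.5, 0 of 8 were called against 0.0173%. These shares of all probes are so small that nothing is read from a count of 0 in 8. Myh6 M76598 had a second reading of 1.12 in Bra over Rex1, past the threshold, but a direct reading of -0.48. Myl4 came nearest by the direct reading, at 0.86 in Bra over Rex1 and 0.76 in Flk1 over Rex1, but the second readings were 0.09 and 0.24. The Myl7 readings were 0.25 and -0.08 in Bra over Rex1 and 0.03 and 0.91 in Flk1 over Rex1. Member medians in these comparisons stayed between -0.10 and 0.12 in either reading. A change at day 4.5 of the size of the gaps between these readings was not detectable.

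The routes through the mesodermal cells gave the same sign as the direct array for the 6 probes with large ratios. For Myl7 in Nkx2.5 over Rex1 the route through Bra gave 3.0 and the route through Flk1 1.78, around the direct 2.67. For Myl4 they were 2.60 and 2.33 against 1.82. For Myh6 M76598 they were 1.21 and 2.03 against 2.81, a gap of 1.59 through Bra where the SD of that gap over all probes was 0.396. The ranking of members by size therefore depended on the route, and the order of Myl7, Myl3 X67685 and Myh6 M76598 was not settled.

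A further 3 probes have no gene name but are described in the files as cardiac myosins, and they are given apart from the members. The probe ENSMUST00000012976, described as the slow and ventricular essential light chain, had readings of 0.72 and 1.19 in Nkx2.5 over Rex1, 1.09 and 0.62 over Bra, and 1.19 and 0.71 over Flk1. It was well above background in all 10 channels and was higher in Nkx2.5 cells by both readings of each comparison, but in none did both reach the threshold. The probes ENSMUST00000037162 and ENSMUST00000037180, described as the alpha heavy chain, were well above background in 2 and 7 of 10 channels. Their readings in Nkx2.5 over Rex1 were 0.10 and 0.74, and 0.38 and 0.25, but the scanner marked both spots Bad on that array. The first was also marked Bad on the Bra over Rex1 array. It was well above background only in Nkx2.5 cells, on 2 of 3 arrays. Its direct readings were 0.35 over Bra and 0.75 over Flk1 cells, where the series table gives 1.04 and 0.95. Whether it followed Myh6 M76598 was not settled. The other had direct readings of 0.14 over Bra and -0.16 over Flk1 cells, so it did not follow Myh6 M76598 there.

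The gene nearest to Myl7 by its log2 ratios over the 5 arrays was Tnnt2, cardiac troponin T, at a Euclidean distance of 0.61. The embryonic and adult globins Hbb-y and Hbb-b2 followed at 0.79 and 0.85, then Vmn1r23, a vomeronasal receptor, at 0.88 and Ctsh, a lysosomal protease, at 0.96. Myl4 was further from Myl7, at 1.64, than any of these. The nearest to Myl4 was Jun, an AP-1 transcription factor, at 0.51, then Gpc3 at 0.60, Mmd at 0.67, Nrep at 0.76 and Tm9sf2 at 0.77. The Myl3 AK002312 probe lay at 0.59 from Myl4. These distances describe likeness over 5 arrays that share RNA populations, among probes well above background on all Nkx2.5 arrays.

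The thin filament holds actin, tropomyosin and the calcium-sensing troponins. In Nkx2.5 over Rex1, 5 of 18 probes from 14 genes rose and 0 fell, against 2.68% and 0.707% of all probes. The list median was 0.44 direct and 0.47 by the second reading. Tnnt2 rose with readings of 2.46 and 2.51. Tnnc1, the cardiac and slow troponin C, rose with 1.35 and 1.21, and Tnni1, the troponin I of embryonic heart and slow muscle, with 1.26 and 1.13. At the other end stood Tnnt1, of slow skeletal muscle, at -0.21 and -0.56, and Lmod2, a filament nucleator, at -0.22 and -0.51. The same list had 4 of 18 probes higher in Nkx2.5 over Bra and 4 of 18 in Nkx2.5 over Flk1. Of all probes, 0.319% and 0.34% were called higher in these comparisons.

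Among partners of the thick filament, 3 of 17 probes from 10 genes rose in Nkx2.5 over Rex1, against 2.68% of all probes. The list median was 0.22 direct. Mybpc3, the cardiac myosin-binding protein C, rose with 1.63 and 1.96. Ttn, the giant spring that spans the sarcomere, had 0.76 and 0.74 at its brightest probe, which was not called. The other 2 calls of the list were dimmer Ttn probes, named after their values were seen: BC025840 rose with 1.37 and 1.34, and AK009648 with 1.11 and 1.17. Smyd2, a methyltransferase, had 0.47 and 0.74. Myom2 of the M-band had -0.30 and -0.47, and Hsp90aa1, a chaperone that helps fold myosin, -0.44 and -0.33. Mybpc3 was also called higher in Bra over Rex1, with readings of 1.59 and 1.40, and it had 0.23 and 0.03 in Nkx2.5 over Bra. It was 1 of 17 probes called in Bra over Rex1, against 1.16% of all probes, and nothing is read from that count. Mybpc3 and Ttn AK009648 were each well above background on 1 of 3 Rex1 arrays, so their folds over Rex1 cells are poorly fixed.

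Other myosin genes were read as 2 lists. Of 11 probes from 8 genes of skeletal and developmental myosins, 2 rose in Nkx2.5 over Rex1. Myl10, a regulatory light chain, rose with 1.49 and 1.03, while the brightest Myh4 probe had 0.74 and 0.25 and Myl1 0.66 and 0.44. The other call was a dimmer probe of Myh4, a fast skeletal heavy chain, named after its values were seen. This AJ278733 probe rose with 1.37 and 2.49 and was well above background on 0 of 3 Rex1 arrays. It was also called higher in Bra over Rex1, with 1.45 and 1.02. Myh2 had -0.63 and -0.39 and Mylpf -1.02 and -0.73. Of 11 probes from 7 smooth muscle and non-muscle myosin genes 0 rose and 0 fell. With 2.68% and 0.707% of all probes called, nothing is read from 0 of these 11 probes. Their highest and lowest were Myl6 at 0.37 and 0.22, Myl12b at 0.15 and 0.14, Myl12a at 0.15 and 0.05, Myh9 at -0.24 and -0.29 and Mylk at -1.10 and -0.16.

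**Figure D3:**
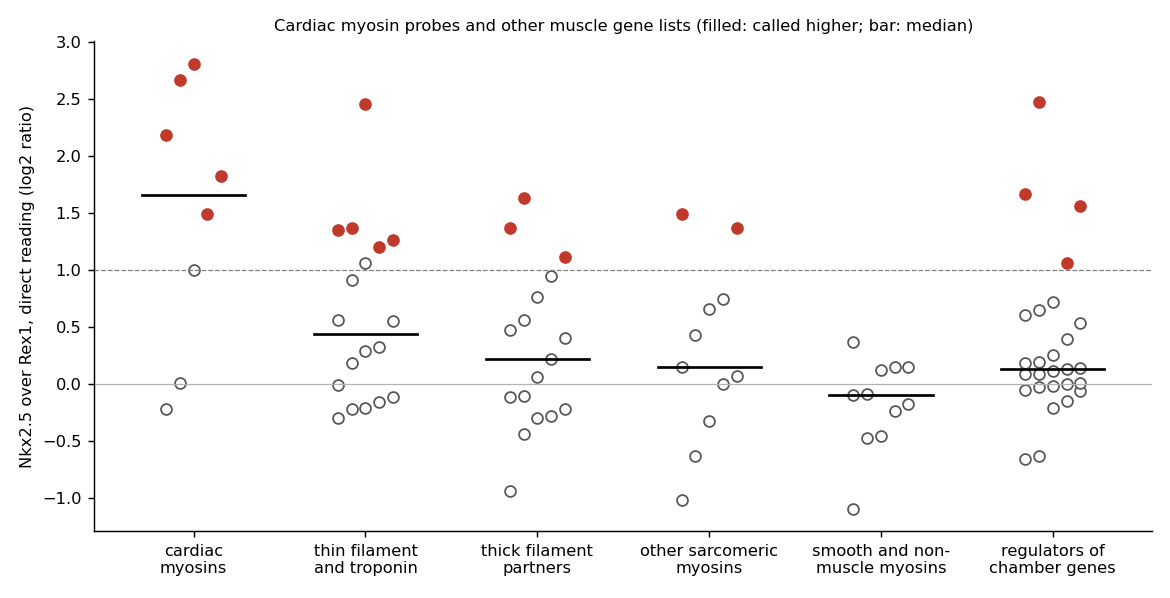
Direct log2 ratio in Nkx2.5 over Rex1 (vertical axis) of the 8 cardiac myosin probes and of the probes of 5 other lists (horizontal axis), filled where called higher, with the list median as a bar. The cardiac myosin median of 1.66 is the highest. No probe of the smooth muscle and non-muscle myosins is filled, where 2.68% of all probes were called higher.

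Of 27 probes from 20 regulators of chamber genes, 4 rose in Nkx2.5 over Rex1, against 2.68% of all probes. Nr2f1, a nuclear receptor of the COUP-TF family, rose with 1.67 and 2.47, Hey2, a ventricular repressor, with 1.56 and 1.44, and Isl1, a factor of the second heart field, with 1.06 and 1.45. The other call was S68895, a dimmer probe of Mef2d, a MADS-box factor, which rose with 2.47 and 2.77 and was named after its values were seen. The brighter Mef2d probe had 0 and 0.16 and was not called, so the probes of this gene disagreed. Hand1 had -0.15 and -0.30 and Mef2a -0.63 and -0.51. None of the 27 probes was called higher in Nkx2.5 over Bra or over Flk1, against 0.319% and 0.34% of all probes. Nothing is read from these counts of 0. In Bra over Rex1 3 of the 27 were called higher, against 1.16% of all probes. They were Nr2f1, Hey2 and Mef2d S68895, each well above background on 0 of 3 Rex1 arrays. Their folds over Rex1 cells are therefore poorly fixed.

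Markers of other cell types moved beside the myosins. Blood markers rose in 3 of 6 probes in Nkx2.5 over Rex1, and their mean normalised signal was 13.81 to 13.93 in Nkx2.5 cells against 11.26 to 12.84 in Rex1 cells. Named after their values were seen, these 3 were probes of the globins Hbb-y, Hba-x and Hbb-bh1. Another Hba-x probe had 0.86 and 0.63, Gata1 0.08 and 0.13 and Klf1 0.14 and 0.06, and none of these was called. Endoderm markers rose in 3 of 7 probes, with 11.81 to 11.87 against 10.65 to 10.88. Smooth muscle markers rose in 1 of 11 probes, skeletal muscle markers in 0 of 10 and endothelial markers in 0 of 6, while pluripotency markers fell in 3 of 5. Over all probes 2.68% rose and 0.707% fell, so nothing is read from the counts of 0 or 1. Of the cardiomyocyte markers that are not members 3 of 14 probes rose. In populations read as bulk RNA, fewer cells of a type and less RNA per cell cannot be told apart, and the part of other cell types in the myosin signal was not tested.

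**Figure D4:**
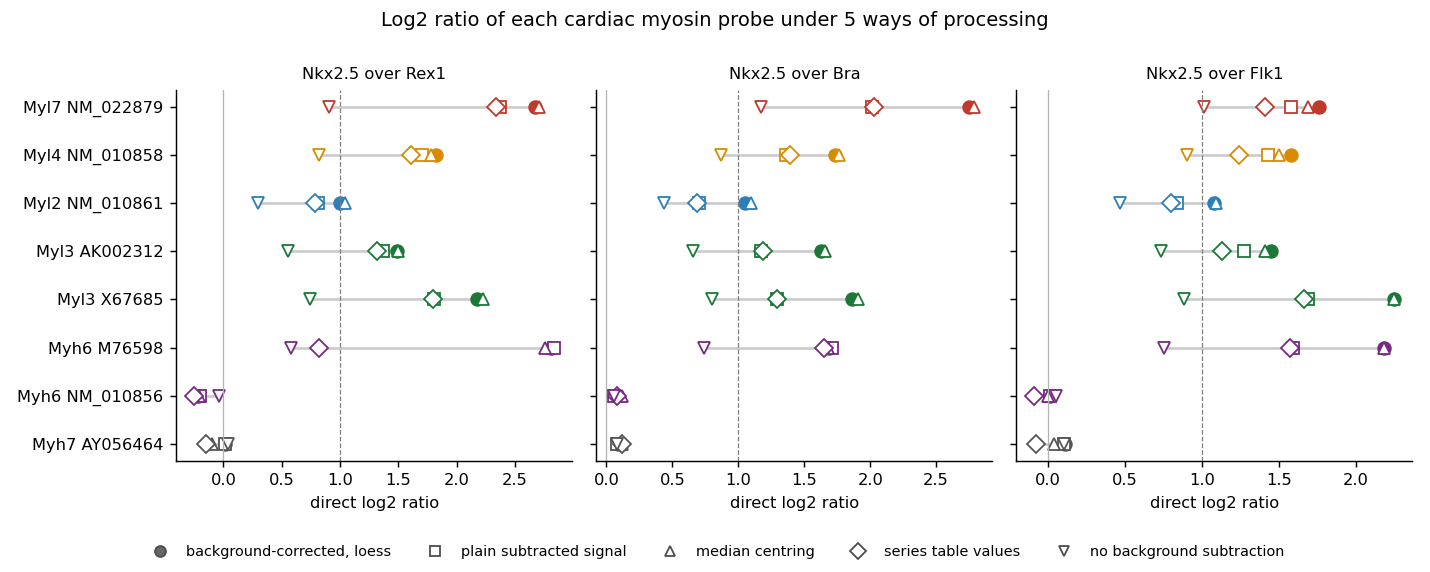
Direct log2 ratio (horizontal axis) of the 8 probes (vertical axis) in the 3 comparisons of Nkx2.5 cells under 5 ways of processing, with the values used in the text filled. Ratios without background subtraction are the smallest for the 6 probes with large ratios, and in Nkx2.5 over Rex1 the series table value of Myh6 M76598 stands apart at 0.82.

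The sizes of the ratios depended on how background was treated. Probes that were called kept their direction without background subtraction, with plain subtraction, with median centring, in the series table and by least squares. Without background subtraction Myl7 in Nkx2.5 over Rex1 was 0.91 in place of 2.67, Myl4 0.82 in place of 1.82 and Myl3 X67685 0.74 in place of 2.18. With the background subtracted as deposited they were 2.37, 1.70 and 1.81. The sign of the near-zero ratios of Myh7 did change, from 0.01 to -0.15 in the series table.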

How the data were processed

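Expression was measured in 4 populations on 5 two-colour arrays. Per the labels' protocols, column-purified total RNA was amplified with amino allyl nucleotides and then dyed with Cy3 or Cy5. The sources used here name no genome build, scanner software or normalisation step. The deposited intensity columns used here hold the median spot signal and the background of both dyes, per the file headers, and the values show 48 blocks with 1 background each that was already subtracted. The deposited ratio column is 0 at spots marked Bad, which were kept here. The deposited series table holds log2 ratios that, outside the spots marked Bad, differ from the log2 of the scanner ratio by 1 constant per array. Where its values at Bad spots come from is unknown. Its column medians were -0.0846, -0.0599, -0.0578, -0.00732 and -0.0728 for the arrays of Bra and then Flk1 and then Nkx2.5 over Rex1, and of Nkx2.5 over Bra and over Flk1.

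Signal plus background was corrected with normexp (offset 50) and loess-normalised in limma 3.58.1 (R 4.3.3), where control spots had weight 0. Channel levels were then scaled between arrays by Aquantile. Tables were made in Python 3.11.15. Control and empty spots were left out. Of the gene probes, 8056 were named by accession, 5228 by symbol and 5063 by a synonym through the RefSeq table of GRCm38.p6, 574 kept the name in the files and 9924 had none. The second reading of Nkx2.5 over Rex1 averaged the Bra route and the Flk1 route. A fit over all arrays would leave 2 residual degrees of freedom that measure hybridisation, so no p-value is given. The call rule was tested on simulated data.

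The members, gene lists and alternatives were chosen with earlier results of these data known. Genes of the other lists were named by rule: the 3 largest and 2 smallest direct readings in Nkx2.5 over Rex1 among genes well above background on all Nkx2.5 arrays, the brightest probe standing for each, plus the 4 genes that name the populations. Mybpc3 in Bra over Rex1 was the only call of its list there. The 5 genes nearest to Myl7 and to Myl4 were taken by Euclidean distance over 5 arrays, among probes well above background on all Nkx2.5 arrays. Members, unnamed probes, names kept only from the files, and RIKEN and predicted names were passed over. Alternatives were 3 other background or normalisation settings, the series table, a fold of 1.5, percentile 99 and 1 least-squares estimate over all arrays.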

Additional observations from a re-analysis of the deposited data

How the results depend on the processing

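The calls rested most on background subtraction. Without it, 0 of 8 member probes were called higher in Nkx2.5 over Rex1, 1 in Nkx2.5 over Bra and 1 in Nkx2.5 over Flk1, in place of 5, 3 and 6. Only 2, 3 and 3 of all 28845 probes were then called. With a fold of 1.5 in place of 2 the count in Nkx2.5 over Bra was 6, and with 1 least-squares estimate over the 5 arrays it was 5. Plain subtraction, median centring, the series table, percentile 99 and leaving out spots marked Bad, the last chosen after seeing the data, kept each count within 1.5 times. In Bra over Rex1, Flk1 over Rex1 and Flk1 over Bra the count was 0 under each of the 8 alternatives. Few of all 28845 probes were called there, so nothing is read from these counts of 0. With a fold of 1.5, 944, 687 and 44 of all probes were called, and without background subtraction 0 in each comparison. Of the direct readings, 27 of 40 moved by more than the error of 1 array without background subtraction, 16 with the series table, 10 with plain subtraction and 10 with least squares. No called reading changed sign under those settings. Leaving out a replicate was not possible with 1 array per hybridised pair. No paired analysis was possible because each comparison has 1 array and no replicate samples. Faint signals limit the Rex1 side of Myl7 and Myh6 M76598 in particular.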
